A study of Arabidopsis thaliana with 24 samples.

Results

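The miR159 and miR319 entries were taken from the small RNA tables of Arabidopsis seedlings by a single rule, that the miRNA name is of the miR159 or the miR319 family, with both arms kept. The rule found 6 of the 350 mature sequences listed, namely ath-miR159a, ath-miR159b-3p, ath-miR159b-5p, ath-miR159c, ath-miR319a and ath-miR319c. The entry ath-miR319a also stands for miR319b, whose mature sequence is identical, so its values cannot be assigned to 1 locus. Small RNA was sequenced from 24 libraries of whole seedlings, 2 weeks old, with 3 replicates of each of 8 groups. Seedlings of abi1td, mkkk17, mkkk18 and WT Col-0 were treated with 100 µM ABA for 4 h or were mock-treated for the same time. The abi1td, mkkk17 and mkkk18 lines each carry a T-DNA insertion, which hits the phosphatase gene ABI1 in abi1td, the kinase gene MAPKKK17 in mkkk17 and the kinase gene MAPKKK18 in mkkk18, and each genotype is represented by a single line. Values are RPM as deposited, the reads of an entry scaled to a fixed total per library, and only small RNA was measured, so the target mRNAs named here have no measured level.

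In plants, miR159 pairs with mRNAs of GAMYB-like transcription factors and keeps them silent in vegetative tissue, and its targets MYB33 and MYB101 are known as positive regulators of ABA responses in seeds. The related miR319 pairs with mRNAs of CIN-type TCP transcription factors, which limit cell proliferation in leaves. ABA is the hormone of drought and seed dormancy, ABI1 is a phosphatase that represses its signaling, and MAPKKK17 and MAPKKK18 are kinases activated through it.

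The mature sequences of both families differ at few positions, which bears on every value given for a single member. They are shown 5′ to 3′ as the deposited tables list them, in RNA letters, with the seed (bases 2 to 8) in capitals. The first set holds the 3 members that share the miR159 seed.
ath-miR159a: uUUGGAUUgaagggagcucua
ath-miR159b-3p: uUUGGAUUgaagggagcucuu
ath-miR159c: uUUGGAUUgaagggagcuccu

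The miR319 members share another seed and are shown for the shift of their 5′ end against miR159.
ath-miR319a: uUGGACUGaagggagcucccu
ath-miR319c: uUGGACUGaagggagcuccuu

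The opposite arm of the MIR159b hairpin gives the last entry, which shares neither seed.
ath-miR159b-5p: gAGCUCCUugaaguucaaugg

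Counted from 1 at the 5′ end of miR159a, miR159b-3p differs from it by A21U alone, and miR159c by U20C and A21U. The 2 miR319 members differ from each other by C20U, counted along miR319a. When miR319a is shifted by 1 base against miR159a, 17 of the 20 overlapping bases are identical. The differences are U7C, U20C and A21C, in miR159a positions. The pair miR159c and miR319c is closer still, with 19 of 20 overlapping bases identical and U7C the only difference. Reads that end 1 base early cannot tell miR159a from miR159b-3p, and how such reads were assigned is not given in the sources used here.

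Exact matches to TAIR10.1 placed each entry in its annotated MIR gene. The position of miR159a is chr1:27713234-27713254 on the minus strand (MIR159a, AT1G73687). Both arms of MIR159b (AT1G18075) lie on the plus strand, miR159b-3p at chr1:6220813-6220833 and miR159b-5p at chr1:6220650-6220670. The position of miR159c is chr2:18994826-18994846 on the plus strand (MIR159c, AT2G46255). The miR319a sequence occurs at chr4:12353109-12353129 on the plus strand (MIR319a, AT4G23713) and at chr5:16660469-16660489 on the minus strand (MIR319b, AT5G41663). The position of miR319c is chr2:17029870-17029890 on the plus strand (MIR319c, AT2G40805).

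Known target mRNAs hold sites that follow these sequences, and 4 of them are shown to let a reader see the pairing. They are DNA letters of RefSeq transcripts in TAIR10.1, 5′ to 3′, with the bases that pair by Watson-Crick rules with the named miRNA in capitals. Each site lies in a coding sequence. The MYB33 and MYB65 sites have identical letters and leave 2 mismatches and 1 G:U pair with miR159a. MYB101, which drives ABA responses, leaves 1 mismatch and 1 G:U pair with miR159a.
MYB33 and MYB65 with miR159a: TgGAGCTCCCTTCAtTCCAAt
MYB101 with miR159a: TAGAGCTtCCTTCAAaCCAAA
TCP4 with miR319c: gAGGgGtcCCCTTCAGTCCAg

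The first site is chr5:1839579-1839599 on the plus strand in exon 3 of MYB33 (AT5G06100), and chr3:3604151-3604171 on the plus strand in exon 3 of MYB65 (AT3G11440). The MYB101 site is chr2:13783168-13783188 on the minus strand, in exon 3 of AT2G32460. The site in TCP4, a leaf growth regulator, is chr3:5063300-5063320 on the plus strand, in exon 2 of AT3G15030. It leaves 1 mismatch and 4 G:U pairs with miR319c, against 2 mismatches and 4 G:U pairs with miR319a. The match of miR159a to TCP4 was poorer, since its best site there had 3 mismatches and 5 G:U pairs. The MYB33 site of miR319a had 3 mismatches and no G:U pair. The 2 families did not separate throughout. At TCP4 miR159c left 2 mismatches and 4 G:U pairs, as miR319a did. At MYB33 miR159b-3p left 3 mismatches and 1 G:U pair, no better than miR319a. These matches describe letters only.

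The members differed in level by 4 orders of magnitude. By mean RPM over the 24 libraries, miR159a was in place 4 of the 350 entries with 5142 RPM, miR159b-3p in place 6 with 1963 RPM and miR319a in place 12 with 472 RPM. Below them stood miR319c in place 39 with 47.2 RPM, miR159c in place 123 with 1.31 RPM and miR159b-5p in place 149 with 0.454 RPM. All 6 sequences are 21 nt long, so these levels compare entries of equal length. Of the members' summed RPM, miR159a made up 67.4%, miR159b-3p 25.7%, miR319a 6.19% and miR319c 0.619%, while miR159c and miR159b-5p made up 0.0172% and 0.00596%. The MIR159b hairpin was read almost wholly from its 3p arm, with miR159b-5p at 0 to 0.0793% of miR159b-3p (median 0.0283%). The smallest value above 0 was 0.1 RPM in 20 libraries and 0.2 RPM in 4, so miR159b-5p, from 0 to 1.3 RPM, and miR159c, from 0.4 to 3.1 RPM, lie close to the resolution of the tables.

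The summed RPM of all 350 entries ran from 16514.9 to 78276.8 over the libraries, and the lowest sum was that of mkkk17 mock replicate 1. That library also held the lowest value of miR159a, miR159b-3p, miR159c, miR319a and miR319c. Before testing, each library was therefore divided by a factor, its median of ratios to all libraries of the fit. The mean log2 factor of ABA libraries minus that of mock libraries came to -0.13 (abi1td), 1.40 (mkkk17), -0.21 (mkkk18) and -0.51 (WT Col-0), and all fold changes are relative to that shift. In whole seedlings, fewer cells that hold a miRNA and less of it per cell cannot be told apart.

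**Figure D1:**
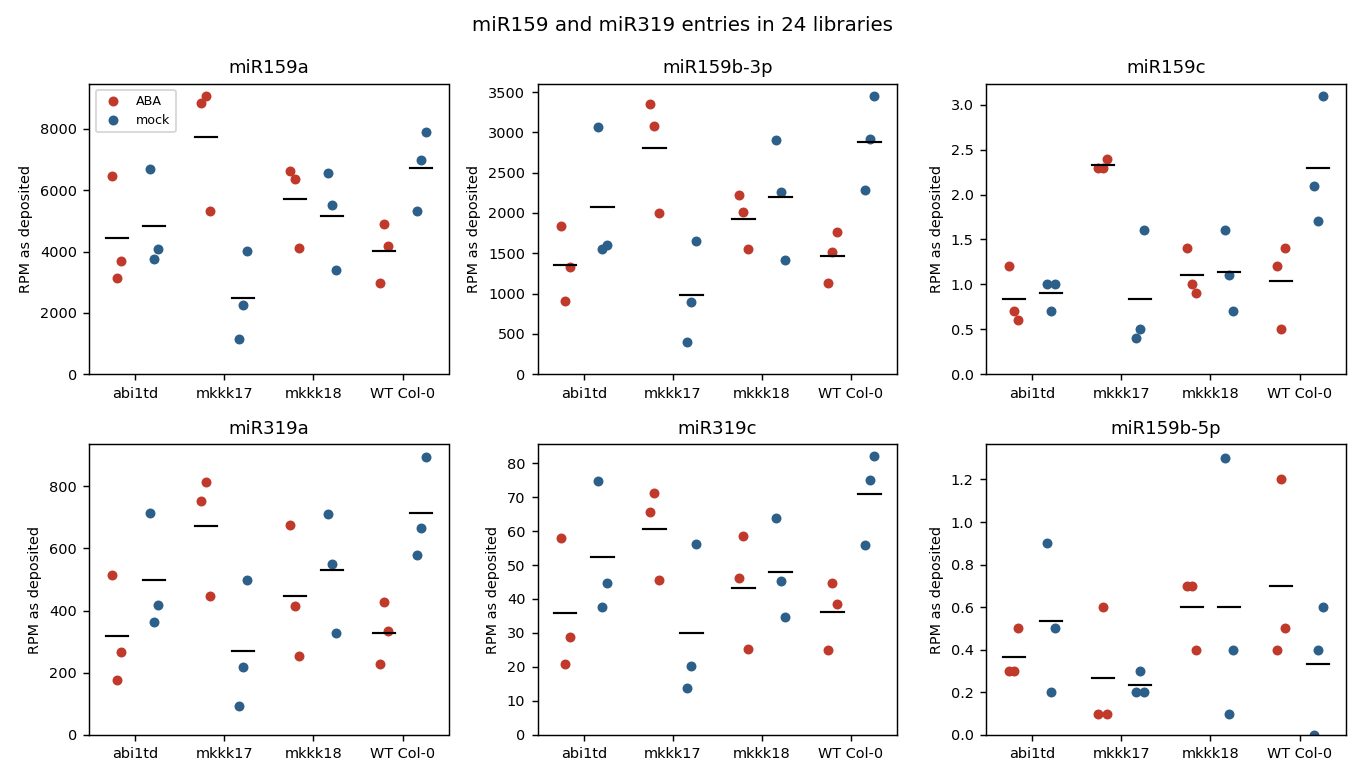
Deposited RPM (vertical axes, linear, from 0) of the 6 entries in each of the 24 libraries, by genotype, with ABA libraries (red) left of mock libraries (blue). Bars are group means of 3 libraries. In mkkk17 the 3 ABA libraries of miR159a, from 5337.3 to 9083.3 RPM, lie above its 3 mock libraries, whereas in WT Col-0 they lie below, from 2973.5 to 4907.4 RPM.

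The first question was how the members responded to ABA in each genotype. As deposited, miR159a, the most abundant member, had 6479.0, 3151.2 and 3702.4 RPM in ABA libraries of abi1td, against 6695.3, 3755.6 and 4087.2 RPM in its mock libraries. The mkkk17 ABA libraries had 8832.6, 9083.3 and 5337.3 RPM of miR159a, against 1151.3, 2264.3 and 4004.0 RPM in mock libraries. In mkkk18 it had 6623.5, 6370.7 and 4124.2 RPM in ABA libraries, against 6576.8, 5511.6 and 3385.0 RPM in mock libraries. Groups of abi1td and mkkk18 thus overlapped, while all ABA libraries of mkkk17 lay above all its mock libraries. In WT Col-0 the values of miR159a were 2973.5, 4907.4 and 4194.5 RPM with ABA, against 5317.8, 6978.3 and 7902.0 RPM with mock treatment. There all ABA libraries lay below all mock libraries.

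The same layout was seen in miR159b-3p, which shares all but the last base with miR159a. Its ABA libraries of abi1td had 1834.0, 908.3 and 1331.0 RPM, against 3061.5, 1557.0 and 1599.0 RPM in mock libraries. In mkkk17 there were 3349.7, 3073.7 and 1999.5 RPM of miR159b-3p with ABA, against 403.3, 901.0 and 1655.2 RPM with mock treatment, again without overlap. ABA libraries of mkkk18 had 2228.4, 2010.0 and 1552.4 RPM, against 2907.3, 2260.9 and 1411.5 RPM in mock libraries, which overlapped. In WT Col-0 miR159b-3p had 1128.2, 1513.9 and 1764.0 RPM with ABA, against 2285.5, 2920.8 and 3452.9 RPM with mock treatment, without overlap.

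For miR319a, the most abundant miR319 entry, ABA libraries of abi1td had 514.8, 177.3 and 265.4 RPM, against 713.9, 364.0 and 416.2 RPM in mock libraries. ABA libraries of mkkk17 had 753.7, 814.9 and 448.3 RPM of miR319a, against 92.4, 216.9 and 497.1 RPM in mock libraries. In mkkk18 the values of miR319a were 675.2, 415.3 and 253.8 RPM with ABA, against 710.3, 549.6 and 328.0 RPM with mock treatment. The groups overlapped in each of these 3 mutants. WT Col-0 had 227.5, 426.4 and 332.7 RPM of miR319a with ABA, against 578.9, 666.8 and 894.4 RPM with mock treatment, without overlap.

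The less abundant miR319c ranged from 21 to 71.1 RPM in the ABA libraries of the mutants, against 13.7 to 74.7 RPM in their mock libraries. In WT Col-0 it had 25.1, 44.6 and 38.6 RPM with ABA, against 55.8, 74.9 and 82.1 RPM with mock treatment. As deposited, 5 of 5 tested members of WT Col-0 had all ABA libraries below all mock libraries, which 43.2% of all tested entries also had. In mkkk17, 3 of 5 members, those of the miR159 seed, had all ABA libraries above all mock libraries, against 57.4% of all tested entries. Both layouts thus include a large part of all miRNAs, and 14% of the 121 entries tested in both genotypes had the pair of them, as these 3 members did.

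After rescaling, the ABA response was tested with limma on log2(scaled RPM + 0.5) over the entries with a mean of at least 1 RPM in the genotype. An entry was called at an adjusted p under 0.05, with Benjamini-Hochberg adjustment over all entries tested. The entry miR159b-5p did not reach 1 RPM in any genotype and miR159c did not in abi1td, so 5 members were tested in mkkk17, mkkk18 and WT Col-0 and 4 in abi1td. Of all these tests, a single one passed, the fall of miR319a in WT Col-0.

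In WT Col-0, 1 of 5 members was called, against 60% of the 125 entries tested there. miR319a fell by 0.62 on the log2 scale (limma, adjusted p = 0.0311, standard error 0.24). This call was lost without mock replicate 1 (adjusted p = 0.103), mock replicate 3 (0.113), ABA replicate 1 (0.0603) or ABA replicate 3 (0.109), and in a fit of all 24 libraries (0.0967). The log2 fold change of miR159b-3p was -0.46 (limma, adjusted p = 0.0519, standard error 0.20), that of miR319c -0.48 (adjusted p = 0.112) and that of miR159a -0.24 (adjusted p = 0.295). For miR159c it was -0.51 with a standard error of 0.39. All 5 values were negative, with a median of -0.48, against a median of -0.10 over all entries tested. Under a correction for GC content the changes of miR319a and miR319c in WT Col-0 were -1.36 and -0.78, both past the threshold, while those of miR159a and miR159b-3p turned to 0.32 and 0.094. The GC content of the mature sequences is 57.1% in miR319a and 52.4% in miR319c, against 42.9% in both miR159a and miR159b-3p.

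In abi1td, none of 4 members was called by limma, against 1.55% of the 129 entries tested, and 1 had an unadjusted p under 0.05, against 11.6% of the entries. The log2 fold changes there were -0.59 for miR319a, -0.48 for miR319c and -0.46 for miR159b-3p, each with an adjusted p of 0.324 from limma, and -0.02 for miR159a. For miR319a the 95% interval in abi1td ran from -1.13 to -0.05, so a fall of the size estimated in WT Col-0 lies inside it. In mkkk17, none of 5 members was called, against 3.1% of the 129 entries tested, and none had an unadjusted p under 0.05. Their log2 fold changes were 0.39 for miR159a, 0.30 for miR159b-3p, 0.26 for miR159c, 0.20 for miR319a and -0.15 for miR319c. With RPM as deposited, 4 of these 5 passed in mkkk17, with 1.79 for miR159a and 1.70 for miR159b-3p, so that comparison depends on the rescaling. The share of all entries that passed in that setting is not given here. As deposited, 57.4% of all tested entries had all ABA libraries above all mock libraries in mkkk17, so the count is not a result about the members. In mkkk18, none of 5 members was called, against 3.01% of the 133 entries tested, and none had an unadjusted p under 0.05. There miR159a had a log2 fold change of 0.38 (95% interval -0.24 to 0.99) and the others lay between -0.07 and 0.14.

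**Figure D2:**
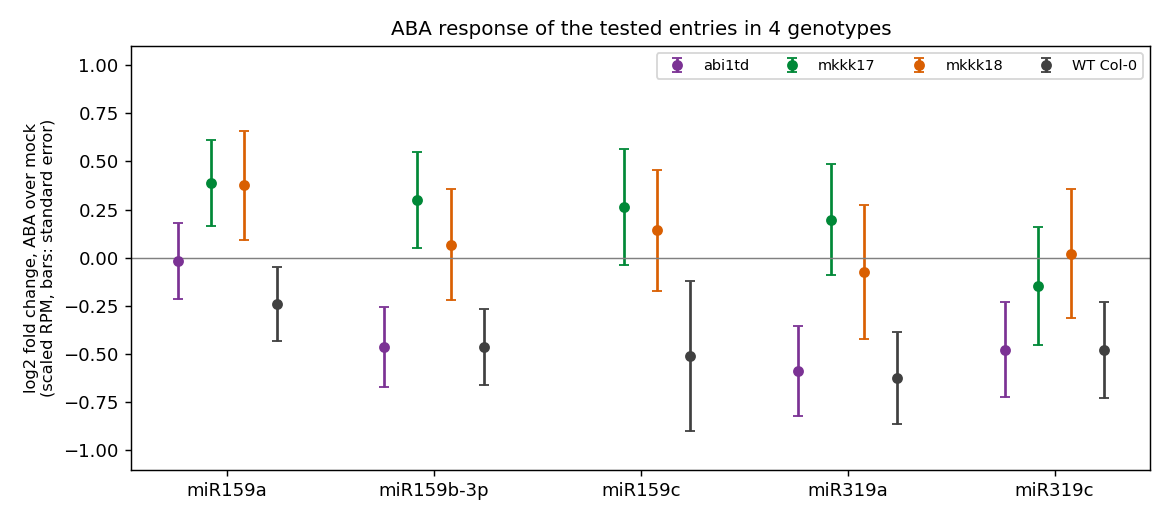
Log2 fold change of ABA over mock (vertical axis, rescaled RPM, log2 scale) for the tested members in abi1td, mkkk17, mkkk18 and WT Col-0. Points are limma estimates from 3 against 3 libraries and bars are standard errors. Only miR319a in WT Col-0, at -0.62, was called, and miR159c was not tested in abi1td.

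Whether the response of a mutant differed from that of WT Col-0 was tested in a fit of all 24 libraries. No member was called in any of these differences. For abi1td minus WT Col-0, 0 of 5 members passed, against 1.55% of all 129 entries tested, and none had an unadjusted p under 0.05, against 21.7% of the entries. For mkkk17 minus WT Col-0, 0 of 5 passed, against 34.1% of the entries, and 1 had an unadjusted p under 0.05, against 45.7% of the entries. All 5 estimates were positive there, with 0.73 for miR319a (95% interval -0.13 to 1.60), 0.68 for miR159b-3p (0.01 to 1.34, adjusted p = 0.102 from limma) and 0.54 for miR159a (-0.12 to 1.19). Under the GC correction the value of miR319a was 1.58 and passed (limma, adjusted p = 0.0125), while those of miR159b-3p and miR159a were 0.21 and 0.072. Without mkkk17 mock replicate 2 the value of miR159b-3p was 0.86 and passed, with an adjusted p of 0.0488 from limma. For mkkk18 minus WT Col-0, 0 of 5 passed, against 13.2% of the entries, none had an unadjusted p under 0.05, and the estimates lay between 0.42 and 0.59.

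Without ABA, all 5 estimates were negative in each mutant against WT Col-0, and none passed the test. The libraries of WT Col-0 with mock treatment enter all 3 comparisons, so the comparisons are not independent of each other. The 5 members were measured in the same libraries and are close in sequence. Their shared sign, here and in the ABA responses, is therefore not 5 separate results. For abi1td minus WT Col-0, 0 of 5 members were called by limma, against 0.775% of the 129 entries tested, and 1 had an unadjusted p under 0.05, against 8.53% of the entries. For mkkk17 minus WT Col-0, 0 of 5 were called, against the same 0.775%, and 3 had an unadjusted p under 0.05, against 18.6% of the entries. There miR159b-3p had a log2 fold change of -0.74 (limma, adjusted p = 0.103, standard error 0.23) and miR319a one of -0.69. For mkkk18 minus WT Col-0, 0 of 5 were called, against 0% of the entries. Of these members, 4 had an unadjusted p under 0.05, against 17.8% of the entries, with log2 fold changes of -0.85 for miR159c, -0.72 for miR319c and -0.56 for miR159a. With RPM as deposited, 5 of 5 passed as lower in mkkk17 than in WT Col-0. That setting keeps the shift between libraries. In the fit of 24 libraries the log2 factors were -1.49, -1.01 and 0.11 in mkkk17 mock libraries. In WT Col-0 mock libraries they were -0.14, 0.41 and 0.37. The share of all entries that passed in that setting is not given here, so the count is not a result about the members. The members had a median of -0.24 in abi1td, against 0.00 over all entries tested. Their median was -0.59 in mkkk17, against -0.04 over all entries, and -0.61 in mkkk18, against 0.02 over all entries.

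Under ABA no member was called in any mutant against WT Col-0 by limma, and none had an unadjusted p under 0.05. Of all entries tested, 16.3% were called for abi1td, 41.1% for mkkk17 and 23.3% for mkkk18. The members had a median log2 difference of -0.31 for abi1td, of -0.06 for mkkk17 and of -0.15 for mkkk18, the last 2 of which turned to 0.94 and 0.38 with RPM as deposited, while that for mkkk17 also turned to 0.13 under the GC correction. With all 24 libraries on the same scale, the highest group mean of miR159a was that of WT Col-0 with mock treatment, at 5738 ± 444 scaled RPM (mean ± SD, n = 3). The lowest was that of mkkk17 with mock treatment, at 3831 ± 676 scaled RPM. None of the 7 steps between neighbouring groups in this order was larger than the larger SD of the pair. For miR319a the order ran from 610 ± 98.0 scaled RPM in WT Col-0 with mock treatment to 332 ± 74.2 scaled RPM in abi1td with ABA, and 1 of 7 steps, that from the first to the second group, exceeded the SD.

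Ratios within a library do not depend on the rescaling. The ratio of miR159b-3p to miR159a, the products of 2 genes on chromosome 1 with the same seed, was lower with ABA in the mean of every genotype. In abi1td miR159b-3p was at 28.3%, 28.8% and 36.0% of miR159a in ABA libraries, against 45.7%, 41.5% and 39.1% in mock libraries. In mkkk17 it was at 37.9%, 33.8% and 37.5% with ABA, against 35.0%, 39.8% and 41.3% with mock treatment. Only the first of these 2 genotypes had all ABA libraries below all mock libraries. In mkkk18 the ABA libraries had 33.6%, 31.6% and 37.6%, against 44.2%, 41.0% and 41.7% in mock libraries, without overlap. In WT Col-0 they had 37.9%, 30.9% and 42.1%, against 43.0%, 41.9% and 43.7%, and 1 ABA library lay within the mock range.

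The ratio of miR319a to miR159a, the most abundant entries of their families, was 7.95%, 5.63% and 7.17% in ABA libraries of abi1td, against 10.7%, 9.69% and 10.2% in mock libraries. It was 8.53%, 8.97% and 8.40% in ABA libraries of mkkk17, against 8.03%, 9.58% and 12.4% in mock libraries. In mkkk18 it was 10.2%, 6.52% and 6.15% with ABA, against 10.8%, 9.97% and 9.69% with mock treatment. The groups overlapped in mkkk17 and mkkk18 and did not in abi1td. In WT Col-0 the ratio was 7.65%, 8.69% and 7.93% with ABA, against 10.9%, 9.55% and 11.3% with mock treatment, without overlap. For miR319c the means were 0.780% of miR159a with ABA against 1.07% with mock treatment in abi1td, 0.792% against 1.17% in mkkk17, 0.742% against 0.939% in mkkk18 and 0.891% against 1.05% in WT Col-0.

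Within 1 genotype an exact permutation test of 3 against 3 libraries cannot go below p = 0.1, and the 12 tests of 3 ratios in 4 genotypes gave p from 0.1 to 0.4, with Benjamini-Hochberg values from 0.171 to 0.4. A test over the 4 genotypes together, with labels permuted within each genotype, was added after these values had been seen. In it the ratio of miR159b-3p to miR159a was lower with ABA by 0.27 on the log2 scale, a ratio of 0.831 (exact permutation test, two-sided, p = 0.00015, Benjamini-Hochberg value 0.0003 over 4 tests). The ratio of miR319a to miR159a differed by a factor of 0.758 (exact permutation p = 0.000287, Benjamini-Hochberg value 0.000383), and that of miR319c also by 0.758 (exact permutation p = 3.75e-05, Benjamini-Hochberg value 0.00015). The fourth test was of the members' share in the summed RPM of their library. That share differed by -0.37 percentage points (exact permutation p = 0.771), and by -2.22 points without mkkk17 (exact permutation p = 0.108). The 3 ratios share miR159a as their denominator and the same libraries, and the test was prompted by these values, so they are not separate results. Of the 122 other entries above 0 in every library, 30.3% also had a ratio to miR159a that was lower with ABA in the mean of all 4 genotypes, and 10.7% had one that was higher. Without mkkk17, whose first mock library had the lowest sum, the factors were 0.798, 0.722 and 0.782 in the same order of ratios. The difference of these ratios between a mutant and WT Col-0 had exact permutation p from 0.395 to 0.84 over 9 comparisons.

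**Figure D3:**
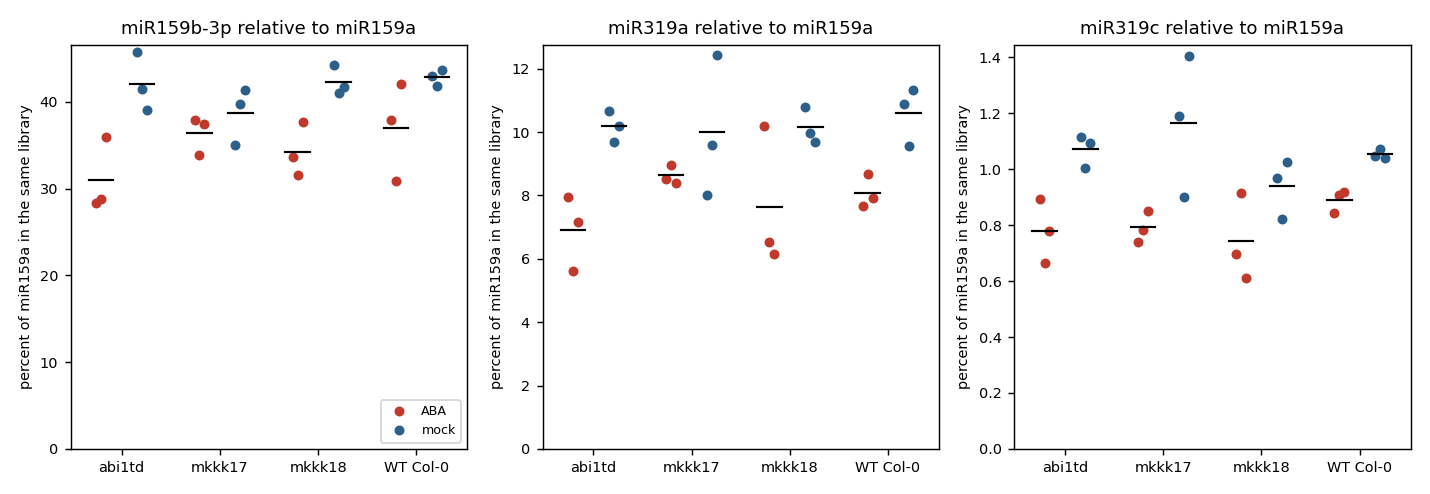
RPM of miR159b-3p, miR319a and miR319c as a percent of the RPM of miR159a in the same library (vertical axes, linear, from 0), by genotype, with ABA (red) left of mock (blue). Points are libraries and bars are group means. The ABA mean lies below the mock mean in all 12 pairs of groups, for example at 31.0% against 42.1% for miR159b-3p in abi1td.

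The share of the 6 members in the summed RPM of all 350 entries lay on opposite sides of the mock libraries in mkkk17 and WT Col-0. In abi1td it was 19.8%, 13.2% and 13.2% with ABA, against 17.4%, 15.6% and 17.3% with mock treatment. In mkkk17 it was 18.7%, 18.2% and 16% with ABA, against 10.1%, 12.4% and 14.9% with mock treatment. All ABA libraries lay above all mock libraries in mkkk17, with overlap in abi1td. In mkkk18 it was 12.2%, 19.7% and 13% with ABA, against 16.2%, 14.5% and 12.5% with mock treatment. In WT Col-0 the share was 13%, 12.7% and 11.8% with ABA, against 19.1%, 18.2% and 17.8% with mock treatment. There the ABA libraries lay below the mock libraries, and their means differed by -5.84 percentage points (exact permutation test, p = 0.1, the smallest for 3 against 3 libraries). The difference in mkkk17 was 5.18 percentage points (exact permutation p = 0.1). Between mkkk17 and WT Col-0 the ABA response of the share differed by 11 points. A test of that difference with labels permuted within both genotypes was added after these values had been seen, and groups that separate in opposite directions always give its smallest p (exact permutation p = 0.005, Benjamini-Hochberg value 0.06 over 12 tests). Without mkkk17 mock replicate 1 the difference within mkkk17 was 3.98 points. Without the most abundant entry of the tables in the sum it was 7.35 points in mkkk17 and -2.79 points in WT Col-0, where the groups then overlapped (exact permutation p = 0.2).

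**Figure D4:**
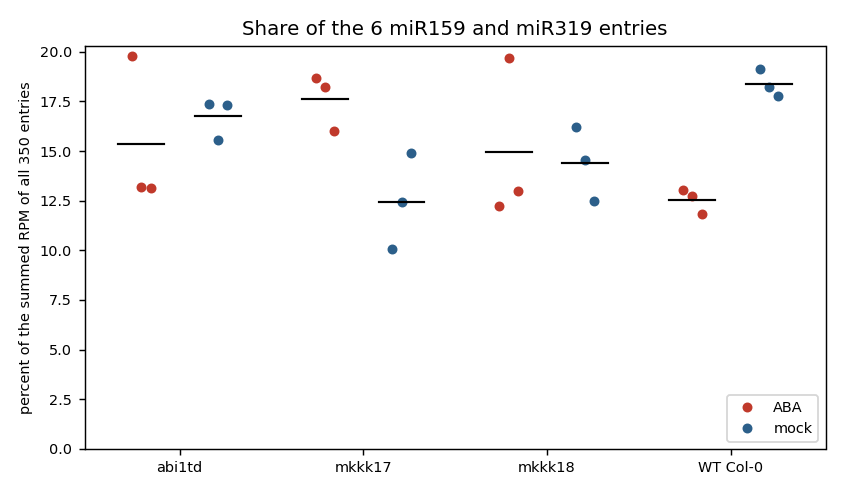
Share of the 6 miR159 and miR319 entries in the summed RPM of all 350 entries (vertical axis, percent, from 0) in each library, by genotype, with ABA (red) left of mock (blue). Bars are group means of 3 libraries, 17.6% against 12.5% in mkkk17 and 12.5% against 18.4% in WT Col-0.

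Other miRNA families tied to TCP or MYB factors were described from a list. It holds miR164 and miR396, which act downstream of TCP factors, and miR828 and miR858, which target other MYB mRNAs than miR159 does. Of the 11 entries of this list, 9 were tested in each ABA response, none of them of miR828. In abi1td, mkkk17 and mkkk18, 0 of 9 were called, against 1.55%, 3.1% and 3.01% of all entries in the order of these mutants. In WT Col-0, 1 was higher and 3 were lower with ABA, while 33 of all 125 entries were higher and 42 lower, which is 60%. miR164b-3p rose by 1.27 on the log2 scale (adjusted p = 0.00465 from limma). The other arm of that hairpin, miR164b-5p, was not called, with a log2 fold change of 0.63 (adjusted p = 0.0701 from limma). Lower were miR396b-3p, with a log2 fold change of -1.07 (adjusted p = 0.0137 from limma), miR396a-3p with -0.93 (adjusted p = 0.0137 from limma) and miR396a-5p with -0.61 (adjusted p = 0.0339 from limma), the last being the guide strand that targets mRNAs of growth-regulating factors. The call of miR164b-3p was lost with RPM as deposited (log2 fold change 0.78), and those of miR396a-3p and miR396a-5p under the GC correction (-0.37 and -0.050). The call of miR396a-5p was also lost with the replicate block, in the fit of all 24 libraries and with no filter, with adjusted p of 0.07, 0.0572 and 0.0507 from limma, and that of miR396b-3p under the GC correction with the block (adjusted p = 0.0505). Leaving out single libraries ended the call of miR396b-3p in 3 of 6 fits, of miR396a-3p in 2 and of miR396a-5p in 5, with mock replicate 3 and ABA replicate 2 among them for each. The list's median log2 fold change in WT Col-0 was 0.48, against -0.10 over all entries tested. This median joins families that went opposite ways. The tested entries of miR396 ran from -1.07 to -0.60, and those of miR164 and miR858 from 0.48 to 1.27.

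Across the 24 libraries, the members followed each other to different degrees. The Pearson r of log2 scaled RPM with miR159a was 0.79 for miR159b-3p, 0.72 for miR319a, 0.63 for miR319c and 0.27 for miR159c, the last at about 1 RPM. Of the entries outside both families, those most like miR159a by this measure were miR399b with 0.68, miR397a with 0.62 and miR399a with 0.59. These values come from the same libraries, share their rescaling and are a description.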

How the data were processed

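Small RNA of 24 seedling libraries was sequenced, with 3 replicates in each of 8 groups taken from the labels, which name no shared growth or sequencing day. The authors clipped adapters, filtered reads for quality, assigned them to miRNAs with mirPRo and deposited RPM for each library, rounded to 1 decimal, 1 column per library, with no pooling. The total behind the RPM is not given in the sources used here, and the tables hold no read depth per library. The rounded values do not give back whole reads, so count tests were not run, and low entries are resolved to 0.1 RPM at best. P-values of limma set a difference against the spread between these libraries. Those of the permutation tests set it against the differences under other assignments of the treatment labels.

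Each library was divided by its median of ratios, taken over entries detected throughout the fit. The log2(scaled RPM + 0.5) values entered limma 3.58.1 in R 4.3.3 (empirical Bayes with a variance trend), which understates changes of low entries. Entries with a mean of at least 1 RPM were tested, with Benjamini-Hochberg adjustment over all of them and a threshold of 0.05. Each ABA response used the 6 libraries of its genotype, and all other contrasts used a fit of the 24 libraries. Ratios and shares were compared with exact permutation tests, two-sided. Other steps ran in Python 3.11.15 (matplotlib 3.10.9, SciPy 1.17.1, pandas 2.3.3, NumPy 2.4.6). Sequences were matched without mismatch to TAIR10.1, since the tables hold no coordinates and name no build. Target sites are the ungapped stretches of RefSeq transcripts with the lowest score, where a mismatch counts 1 and a G:U pair 0.5.

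Alternatives were RPM without rescaling, trimmed-mean scaling, pseudocounts of 0.1 and 1, no filter, a filter at 5 RPM, a replicate block, a GC correction with and without that block, a joint fit of the 24 libraries and leaving out 1 library at a time. In the GC correction, a line fitted to the deviations of a library against GC percentage was removed. The limma procedure was tested on simulated data drawn from the means and spreads of the abi1td libraries. There 40 entries were given a change larger than any ABA response of a member after the rescaling. Of these 30 were recovered, with 2 false calls, and 0 false calls were made without changes. Smaller changes can thus go uncalled. The members, the list of other families and the tests were chosen with earlier results of these data known. The text names all members, those entries of the list that were called in an ABA response, and the 3 other entries most correlated with miR159a. It also names miR164b-5p, as the other arm of a called entry.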

Additional observations from a re-analysis of the deposited data

Results flagged for a closer look

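The ABA responses of mkkk17 and WT Col-0 were marked where all ABA libraries of 1 genotype lay above its mock libraries and all those of the other lay below. As deposited, the mean log2(RPM + 0.5) of miR159a in ABA libraries minus that in mock libraries was 1.79 in mkkk17 and -0.75 in WT Col-0, a gap of 2.54. For miR159b-3p it was 1.70 in mkkk17 and -0.98 in WT Col-0, a gap of 2.68, and for miR159c 1.2 in mkkk17 and -0.89 in WT Col-0, a gap of 2.09. Of the 121 entries tested in both genotypes, 14% had this layout. After the rescaling the same gaps were 0.54, 0.68 and 0.72 in this order, none of them past the threshold of limma, so the result is given here as a difference of deposited RPM. The share of the 6 members in the summed RPM, which needs no rescaling, had the same layout, with 5.18 points in mkkk17 and -5.84 points in WT Col-0, a gap of 11 points. Of the members' summed RPM, miR159a made up 67.4% and miR159b-3p 25.7%, so the share is not separate from their values. How many other entries have a share with this layout is not given here. Without the most abundant entry in the sum, the difference in WT Col-0 was -2.79 points and its groups overlapped. The summed RPM of all entries was lowest in mkkk17 mock replicate 1, and without that library the difference of the share within mkkk17 was 3.98 points.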

How the results depend on the processing

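In WT Col-0, 1 member was called after ABA. With RPM as deposited the count was 3. It was 2 with trimmed-mean scaling, with a filter at 5 RPM, with a pseudocount of 0.1 and under the GC correction, with or without the replicate block. It was 0 in the fit of all 24 libraries and with the replicate block, where miR319a had an adjusted p of 0.0642 from limma at the same log2 fold change of -0.62. Whether the replicate numbers pair the libraries is not given by the labels. The deviations of same-numbered libraries had mean correlations from -0.18 to 0.16, and single pairs ran from -0.32 to 0.50. With 3 libraries per group these values cannot decide it. The block ended no other call of a member. With each library left out, the count in WT Col-0 ran from 0 to 1. In mkkk17, RPM as deposited gave 4 called members after ABA, 5 in the difference from WT Col-0, 5 against WT Col-0 among mock libraries and 1 among ABA libraries, against 0 in each with the rescaling. For the difference from WT Col-0 in mkkk17, the count was also 1 with no filter and 1 under the GC correction with or without the block, there miR319a (1.58), and ran from 0 to 1 with single libraries left out, the 1 being miR159b-3p without mkkk17 mock replicate 2. With no filter 1 was called among ABA libraries of mkkk17 too, each time miR159b-5p. The cause was not tested. Counts under the alternatives are given here without the share of all entries called in the same setting, so they describe the processing and not the members.

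Of 44 fold changes of single members computed for the ABA responses, their differences from WT Col-0 in mkkk17 and mkkk18, and the mock libraries, 4 turned their sign with RPM as deposited. These were miR319c in mkkk17 (1.23) and, in mkkk18, miR159b-3p (-0.14), miR159c (-0.0050) and miR319c (-0.18). Under the GC correction, alone or with the block, the 4 that turned were miR159a (0.32) and miR159b-3p (0.094) in WT Col-0, miR159a in abi1td (0.14) and miR319c in mkkk18 (-0.15). The fit of all 24 libraries turned miR319c in mkkk18 (-0.016). None of these values passed the threshold. With single libraries left out, the sign was not kept for miR159a in abi1td (-0.095 to 0.061), for miR319a (-0.039 to 0.40) and miR319c (-0.24 to 0.0083) in mkkk17, and for miR159b-3p (-0.10 to 0.21), miR319a (-0.42 to 0.22) and miR319c (-0.22 to 0.30) in mkkk18. The ABA difference of the members' share turned to 0.26 points in abi1td without the most abundant entry and ran from -1.78 to 1.93 points in mkkk18. The 12 ratios to miR159a kept their sign with a pseudocount of 0.5 and with each library left out. Precision of miR159c and miR159b-5p is limited by mean values near or under 1 RPM.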
